A study of Mus musculus with 20 samples.

Results

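Genes of water, sodium and acid transport in the renal collecting duct were followed in mouse kidney RNA after oxaliplatin, a platinum chemotherapy drug. The 10 genes were chosen by symbol, with earlier results of these data known, from the 55486 genes in the kidney count table. The 7 principal cell genes were Aqp2, Aqp3, Aqp4, Avpr2, Scnn1a, Scnn1b and Scnn1g, and the 3 intercalated cell genes were Slc26a4, Atp6v1g3 and Atp6v0d2. The C57BL/6 mice, 10 weeks old and of both sexes according to the methods, received 10 mg/kg oxaliplatin intraperitoneally in 5% dextrose, or 5% dextrose alone as vehicle, over 8 weeks. Each group held 5 kidney libraries, labelled as biological replicates, and 5 bone marrow libraries, 20 in all. The mice carried no named transgene or deletion. Marrow was collected 6 days after the last dose according to the methods, which do not describe kidney collection.

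The collecting duct sets the final volume, salt content and acidity of urine. In principal cells, vasopressin acts through the V2 receptor (Avpr2) and cyclic AMP to bring the water channel aquaporin 2 to the apical membrane, and water leaves across the basolateral membrane through aquaporins 3 and 4. The same cells take up sodium through the epithelial sodium channel ENaC, built from alpha, beta and gamma subunits (Scnn1a, Scnn1b, Scnn1g) and controlled by aldosterone and by proteases. Intercalated cells carry acid and base: pendrin (Slc26a4) exchanges chloride for bicarbonate in the apical membrane of the cells that secrete base, and a vacuolar proton pump, the V-ATPase, uses cell-specific versions of some subunits (Atp6v1g3, Atp6v0d2) in place of those found in most cells.

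The 4 promoters below are those of 2 principal cell genes that rose and 2 intercalated cell genes that did not pass the test, and each line shows the 250 bases before the RefSeq start site, 5′ to 3′ along the gene (GRCm38.p6). Capitals mark matches, on either strand, to 5 motifs: the cyclic AMP response element half-site TGACG, the GATA site AGATAA, the forkhead site GTAAACA, the steroid receptor half-site AGAACA and the NFAT core TGGAAA.
Aqp2 (chr15:99578806-99579055, plus strand): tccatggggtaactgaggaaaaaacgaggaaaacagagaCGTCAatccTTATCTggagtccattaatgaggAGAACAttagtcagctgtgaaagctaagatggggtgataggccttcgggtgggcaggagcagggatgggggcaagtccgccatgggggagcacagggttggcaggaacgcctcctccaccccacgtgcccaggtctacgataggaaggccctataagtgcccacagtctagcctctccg
Aqp3 (chr4:41098184-41098433, minus strand): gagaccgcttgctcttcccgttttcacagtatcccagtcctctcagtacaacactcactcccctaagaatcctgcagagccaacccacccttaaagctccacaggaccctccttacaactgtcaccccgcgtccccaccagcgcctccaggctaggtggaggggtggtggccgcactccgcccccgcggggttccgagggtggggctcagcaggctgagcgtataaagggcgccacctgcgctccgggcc
Slc26a4 (chr12:31559985-31560234, minus strand): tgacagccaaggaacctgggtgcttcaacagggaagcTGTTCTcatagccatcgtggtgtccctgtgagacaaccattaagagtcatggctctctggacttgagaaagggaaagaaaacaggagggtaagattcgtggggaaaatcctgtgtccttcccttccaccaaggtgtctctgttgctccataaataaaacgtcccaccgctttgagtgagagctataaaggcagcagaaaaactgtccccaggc
Atp6v1g3 (chr1:138273488-138273737, plus strand): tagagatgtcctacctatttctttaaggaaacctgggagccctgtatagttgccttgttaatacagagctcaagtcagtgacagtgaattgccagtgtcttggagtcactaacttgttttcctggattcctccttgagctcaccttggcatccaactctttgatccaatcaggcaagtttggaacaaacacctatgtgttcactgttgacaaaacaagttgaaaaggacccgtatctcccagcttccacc

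The Aqp2 window held a cyclic AMP response element half-site at -211, a GATA site at -202 and a steroid receptor half-site at -179, with positions counted from the start site and no overlap between the matches. The Slc26a4 window held a steroid receptor half-site at -213, and the windows of Aqp3 and Atp6v1g3 held none of the 5 motifs. Of all 32851 RefSeq windows of this length, 17.8% held the cyclic AMP response element half-site, 9.99% the GATA site, 3.17% the forkhead site, 16.1% the steroid receptor half-site and 18.6% the NFAT core. Among the 7 genes of the 10 with a window, 1 window held the first motif, 1 the GATA site, 1 the forkhead site, 3 the steroid receptor half-site and 0 the NFAT core.

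The authors deposited raw read counts per gene. Kidney libraries held between 24393007 and 28304953 counts with vehicle and between 26314983 and 30925430 with oxaliplatin, and marrow libraries between 30660153 and 41140527. Levels are given as CPM, each gene's share of the library in counts per 1000000 after TMM scaling, which corrects for differences in RNA composition between libraries. A count of 3, taken as the floor, corresponded to between 0.0899 and 0.129 CPM in kidney, which covers counting error only. Markers of the proximal tubule summed to between 17113 and 19937 CPM in the vehicle kidneys, and erythroid markers to between 25363 and 46297 CPM in the vehicle marrows. Every library had reads of 4 Y-linked genes, although the methods name both sexes.

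All 9 collecting duct genes that could be tested were higher on average in the oxaliplatin kidneys, by 10.4% to 34.3%, and 4 of them rose: Aqp2, Aqp3, Scnn1a and Atp6v0d2. A gene was said to rise or fall at an adjusted p under 0.05 in the quasi-likelihood test of edgeR (two-sided), adjusted by Benjamini-Hochberg across 19293 kidney genes. Of all genes tested, 14.4% rose by that rule and 52.8% had a log2 fold change above 0. None of the 9 moved beyond 1.5-fold, a step that 7.68% of all genes took upward. An unadjusted edgeR p under 0.05 was found for 6 of the 9, and for 7842 of all 19293 genes tested, in either direction. DESeq2 likewise gave 4 that passed and 0 beyond 1.5-fold, where 3011 of all 19293 genes tested rose and 3240 fell. In bulk tissue, fewer or more cells of a type and less or more RNA per cell cannot be told apart.

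The kidney values depended on scaling. With library size alone in place of TMM, the median log2 fold change of all genes tested moved up by 0.13, the share of genes beyond 1.5-fold that were higher went from 66.9% to 82.7%, and 8 of the 9 collecting duct genes passed, with log2 fold changes from 0.27 to 0.56. With that scaling 4630 of all 19293 genes tested rose and 1577 fell. All 9 stayed above 0 under each of 17 other fits.

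Aquaporin 2 (Aqp2, chromosome 15, 99579055 to 99584547, GRCm38), the vasopressin-regulated water channel, was the most abundant of the 10 genes. In the vehicle kidneys it stood at 234, 268, 357, 341 and 357 CPM, and after oxaliplatin at 473, 372, 414, 340 and 402 CPM. Of the 5 treated kidneys 4 lay above every vehicle kidney, and treated mouse 4 overlapped the vehicle group. The mean went from 311 ± 56.5 to 400 ± 49.8 CPM (SD, n = 5 each), which gave a log2 fold change of 0.36 (SE 0.12, edgeR adjusted p = 0.0346). The call was lost without vehicle mouse 1 (edgeR adjusted p = 0.0660), vehicle mouse 2 (0.0785) or oxaliplatin mouse 1 (0.0745), 3 (0.0640) or 5 (0.0717).

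Aquaporin 3 (Aqp3, chromosome 4, 41092722 to 41098183), a basolateral channel for water and glycerol, stood at 110, 104, 109, 109 and 102 CPM with vehicle and at 149, 128, 128, 125 and 122 CPM after oxaliplatin. The groups did not overlap, which held upward for 9.69% of all genes tested, and treated mouse 1 stood well above the other 4. From 107 ± 3.21 to 130 ± 10.8 CPM, the log2 fold change was 0.29 (SE 0.065, edgeR adjusted p = 0.00301), and it passed with any 1 mouse left out. Aquaporin 4 (Aqp4), the other basolateral water channel, stood at 38.8, 52.4, 33.5, 43.5 and 39.1 CPM with vehicle and at 47.2, 52.8, 35.7, 53.2 and 54.2 CPM after oxaliplatin. These groups overlapped widely, and the log2 fold change of 0.23 (SE 0.13) gave an edgeR adjusted p of 0.194. It passed without vehicle mouse 2 (edgeR adjusted p = 0.0437), the highest of its group, or without oxaliplatin mouse 3 (0.0261), the lowest of its group.

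The V2 receptor gene Avpr2 had 0 to 5 counts in every kidney library, too few to test. It lies on chromosome X at 73892102 to 73895502 (GRCm38, plus strand), and 2347 of its 2886 exon bases (81.3%) are also exon bases of Arhgap4 on the opposite strand. The deposited counts hold unambiguous reads, and strand use is not given in the sources used here, so without strand a read in the shared bases would count for neither gene, leaving 539 bases. The part of this overlap in the low Avpr2 counts was not tested, and the level of the receptor's RNA in kidney is uncertain. Arhgap4 itself had 5.42 ± 0.496 CPM with vehicle and 4.66 ± 0.705 CPM after oxaliplatin. No other gene of the 10 shared exon bases with a neighbour.

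**Figure D1:**
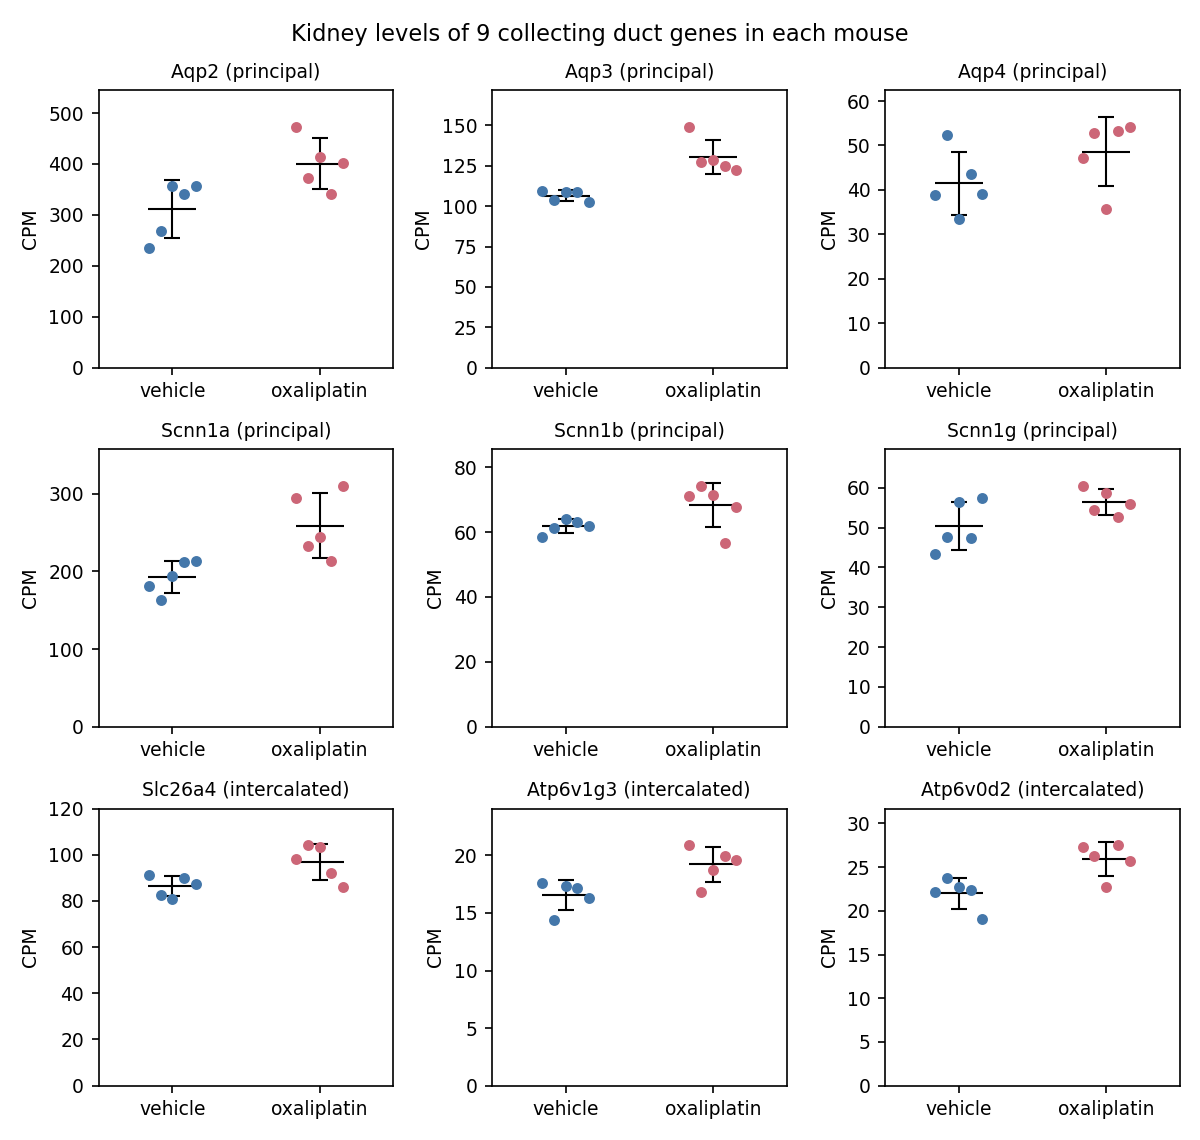
Kidney levels in CPM (vertical axes, from 0) of the 9 tested collecting duct genes in each vehicle (blue) and oxaliplatin (red) mouse, 5 per group, with the mean and SD as black lines. The groups are apart for Aqp3 and Scnn1a, and at least 1 treated mouse lies within or below the vehicle range for each of the other 7.

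Of the ENaC subunit genes, only that of the alpha subunit passed. The alpha subunit gene Scnn1a (chromosome 6, 125320659 to 125344943), needed for the channel to reach the membrane, stood at 182, 163, 194, 212 and 213 CPM with vehicle and at 295, 232, 244, 213 and 310 CPM after oxaliplatin. All treated kidneys lay above all vehicle kidneys, as in 9.69% of all genes tested, and mouse 4 did so by a narrow margin. The mean rose from 193 ± 21.1 to 259 ± 41.8 CPM, with a log2 fold change of 0.43 (SE 0.10, edgeR adjusted p = 0.00581) that passed with any 1 mouse left out. The beta subunit gene Scnn1b stood at 58.4, 61.4, 64.0, 63.2 and 62.0 CPM with vehicle and at 71.0, 74.3, 71.3, 56.8 and 67.9 CPM after oxaliplatin. Here 4 treated kidneys lay above the vehicle range and mouse 4 lay below it (log2 fold change 0.14, SE 0.072, edgeR adjusted p = 0.146). Without that mouse Scnn1b passed, at 0.21 (edgeR adjusted p = 0.0152). The gamma subunit gene Scnn1g ranged from 43.5 to 57.4 CPM with vehicle and from 52.7 to 60.6 CPM after oxaliplatin, with much overlap (log2 fold change 0.16, SE 0.080, edgeR adjusted p = 0.138).

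Within a kidney, the ratio of the beta to the alpha subunit removes the effect of library scaling. The log2 ratio of Scnn1b to Scnn1a was -1.64, -1.41, -1.60, -1.75 and -1.78 in the vehicle mice and -2.05, -1.64, -1.77, -1.91 and -2.19 in the treated mice. It was lower after oxaliplatin by a mean of -0.28 (SE 0.12), with a p of 0.0397 in the exact two-sided permutation test, adjusted to 0.0476 over the 6 subunit ratios tested. The groups overlapped, and the exact permutation test no longer passed without vehicle mouse 1, 2 or 3 or without oxaliplatin mouse 1, 3, 4 or 5 (adjusted p up to 0.0952). The ratio of Scnn1g to Scnn1a differed by -0.25 (SE 0.11), with an exact permutation p of 0.0714. Without vehicle mouse 4 that ratio passed (adjusted exact permutation p = 0.0476). A difference between the beta and gamma subunits was not tested. These genes were chosen with earlier results of these data known, so the p-values of their ratios are a description only.

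The intercalated cell gene Slc26a4 (chromosome 12, 31519827 to 31559969), which encodes pendrin, stood at 91.1, 82.8, 81.0, 89.8 and 87.4 CPM with vehicle and at 98.4, 104, 103, 92.2 and 86.1 CPM after oxaliplatin. Only treated mouse 5 lay within the vehicle range. Its log2 fold change was 0.17 (SE 0.068, edgeR adjusted p = 0.0764), and it passed without that mouse (edgeR adjusted p = 0.0221).

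Of the proton pump subunits, Atp6v1g3 (chromosome 1, 138273738 to 138289462), the kidney form of the G subunit of the pump's stalk, stood at 17.6, 14.4, 17.3, 17.2 and 16.3 CPM with vehicle and at 20.9, 16.8, 18.7, 19.97 and 19.6 CPM after oxaliplatin. Treated mouse 2 lay within the vehicle range, and the log2 fold change was 0.22 (SE 0.087, edgeR adjusted p = 0.0706). Without that mouse it passed (edgeR adjusted p = 0.0392). Atp6v0d2 (chromosome 4, 19876841 to 19922605), the kidney and osteoclast form of the d subunit of the membrane sector, stood at 22.1, 23.7, 22.8, 22.3 and 19.1 CPM with vehicle and at 27.3, 26.3, 22.7, 27.6 and 25.7 CPM after oxaliplatin. Treated mouse 3 lay within the vehicle range, and the mean rose from 22.0 ± 1.74 to 25.9 ± 1.95 CPM (log2 fold change 0.24, SE 0.081, edgeR adjusted p = 0.0364). That call was lost without any of 7 mice, namely vehicle mouse 1 (edgeR adjusted p = 0.0639), 3 (0.0538), 4 (0.0589) or 5 (0.105) or oxaliplatin mouse 1 (0.0688), 2 (0.0644) or 4 (0.0646).

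The genes of both cell types were then set side by side. Over the 6 tested principal cell genes the median log2 fold change was 0.26 and 3 rose, while over the 3 intercalated cell genes it was 0.22 and 1 rose, against a median of 0.02 over all genes tested. In each mouse the mean log2 CPM of the principal cell genes exceeded that of the intercalated cell genes by 1.61 ± 0.12 with vehicle and 1.67 ± 0.10 after oxaliplatin (SD, n = 5 each). This difference between cell types thus moved by 0.064, less than its SD within either group, and no test was made of a score over the chosen genes.

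Ordered by level per kb of exon in the vehicle kidneys, Aqp2 stood first at 219 ± 39.8 CPM per kb, followed by Aqp3 at 58.3 ± 1.76 and Scnn1a at 46.7 ± 5.10. Pendrin (Slc26a4) followed at 27.8 ± 1.41, then Scnn1b at 23.5 ± 0.810 and Scnn1g at 16.9 ± 2.04. The proton pump genes Atp6v1g3 and Atp6v0d2 stood at 8.77 ± 0.694 and 8.10 ± 0.641, above Aqp4 at 6.65 ± 1.13 CPM per kb. The ranges of Atp6v1g3 and Atp6v0d2 overlapped, as did those of Atp6v0d2 and Aqp4, and all other neighbours in this order were apart.

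The proton pump was then examined as a whole, since most of its subunits exist in all cells. Of 20 other intercalated cell genes, all tested, 10 rose and 0 fell, where 14.4% of all kidney genes tested rose and 15.0% fell. Their median log2 fold change was 0.26. The list was chosen with earlier results of these data known, so these shares are a description only. The largest changes were in Avpr1a, the V1a vasopressin receptor (7.88 ± 1.53 to 18.7 ± 6.49 CPM, log2 fold change 1.25, SE 0.22, edgeR adjusted p = 0.00163), P2ry14, a receptor for UDP sugars (2.42 ± 0.680 to 4.82 ± 1.49 CPM, 1.00, SE 0.23, edgeR adjusted p = 0.00388), and Slc26a7, a chloride and bicarbonate transporter (1.49 ± 0.342 to 2.83 ± 0.641 CPM, 0.92, SE 0.22, edgeR adjusted p = 0.00503). In each of these 3 genes every treated kidney lay above every vehicle kidney, as in 9.69% of all genes tested. Foxi1, the transcription factor of intercalated cells, is on the same list and had the smallest change of the 20, a log2 fold change of -0.0046, and was named after its value was seen.

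The subunits found in most cells were counted in the same way. Of 18 such V-ATPase genes, all tested, 8 fell and 0 rose, with a median log2 fold change of -0.16, although with library size alone 2 fell and 2 rose. Among all genes tested 15.0% fell. Those that fell most were Atp6v0a2, an a subunit of the membrane sector, by 0.43 on the log2 scale (SE 0.075, edgeR adjusted p = 4.13e-04), Atp6v1d, in the central stalk, by 0.39 (SE 0.063, edgeR adjusted p = 2.25e-04), and Atp6v0b, in the proteolipid ring, by 0.29 (SE 0.096, edgeR adjusted p = 0.0347). Atp6v0b lost its call without vehicle mouse 1, 3, 4 or 5 or oxaliplatin mouse 4 or 5 (edgeR adjusted p up to 0.0974). Of the 18 genes 5 fell without vehicle mouse 1 or oxaliplatin mouse 4, and 4 without vehicle mouse 3 or 5 or oxaliplatin mouse 5.

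**Figure D2:**
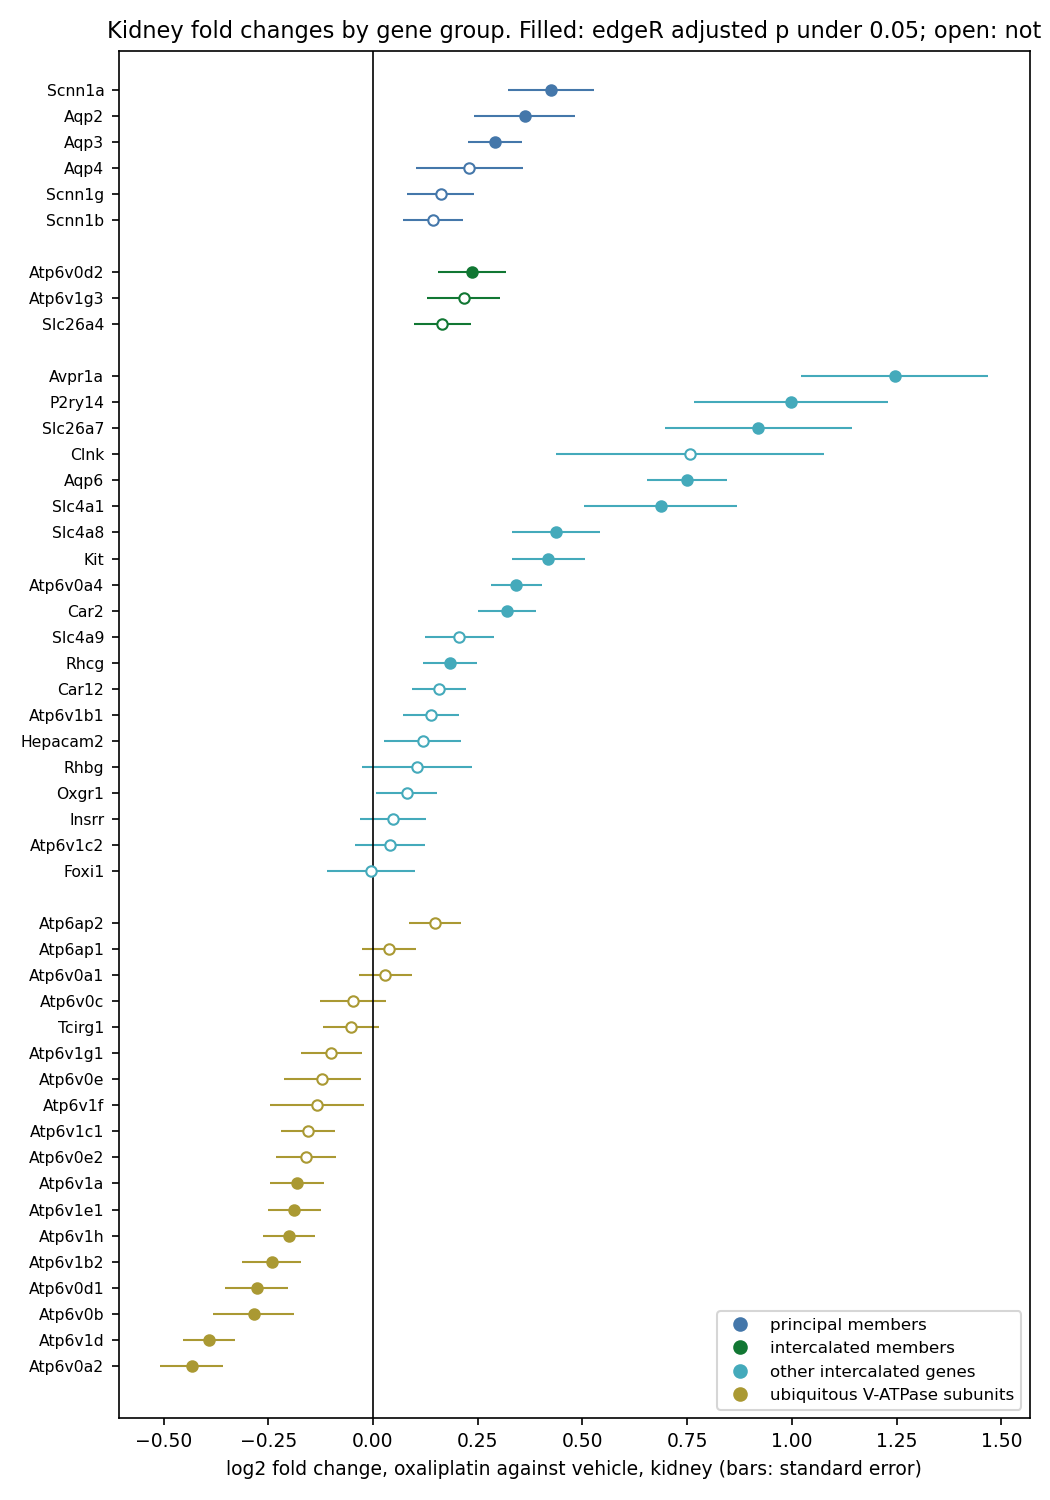
Kidney log2 fold changes (horizontal axis, oxaliplatin against vehicle, TMM scaling, bars are the SE) of the 6 principal and 3 intercalated cell genes, 20 other intercalated cell genes and 18 ubiquitous V-ATPase subunits, filled where the edgeR adjusted p was under 0.05. Filled points lie to the right of 0 in the first 3 groups and to the left of 0 in the last.

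For 4 proton pump subunits, the ratio of a form on the intercalated cell lists to a ubiquitous form was tested within each kidney. Such a ratio does not depend on scaling, and whether other kidney cells also hold the listed form was not tested. The ubiquitous forms are found in most cells, so in bulk tissue the ratio also depends on the mix of cells. The part of that mix in these ratios was not tested. The C subunit, which also has both forms on these lists, was not among the ratios tested: Atp6v1c2 stood at 24.01 ± 2.14 and 24.7 ± 1.95 CPM (log2 fold change 0.04, edgeR adjusted p = 0.748) and Atp6v1c1 at 93.3 ± 4.37 and 83.8 ± 5.84 CPM (-0.16, edgeR adjusted p = 0.0819). For the B subunit, which holds part of the catalytic head, the log2 ratio of Atp6v1b1 to Atp6v1b2 ran from -1.93 to -1.62 with vehicle and from -1.54 to -1.20 after oxaliplatin. For the a subunit, which lies beside the ring, the log2 ratio of Atp6v0a4 to Atp6v0a1 ran from 1.81 to 1.95 and from 2.10 to 2.44. Both ratios were higher in 5 of 5 treated kidneys than in any vehicle kidney, by 0.38 (SE 0.092) and 0.31 (SE 0.070), and each had the smallest p that the exact permutation test of 5 against 5 mice allows, 0.00794 (adjusted to 0.0238). Both passed with any 1 mouse left out (adjusted exact permutation p from 0.0317 to 0.0476). The pairs were drawn from genes and lists chosen with earlier results of these data known. The p-values of these ratios are therefore a description only.

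The d and G subunits are the ones that belong to the 10 genes. The log2 ratio of Atp6v0d2 to Atp6v0d1 was -2.50, -2.32, -2.62, -2.63 and -2.93 with vehicle and -1.98, -2.11, -2.46, -1.92 and -1.98 after oxaliplatin, with only treated mouse 3 inside the vehicle range. It was higher by 0.51 (SE 0.14, exact permutation p = 0.0159, adjusted p = 0.0317), and missed the threshold without vehicle mouse 1 or 3 or oxaliplatin mouse 1, 4 or 5 (adjusted exact permutation p = 0.0635 in each). The log2 ratio of Atp6v1g3 to Atp6v1g1 was -2.57, -2.83, -2.61, -2.62 and -2.67 with vehicle and -2.29, -2.66, -2.51, -2.12 and -2.11 after oxaliplatin, with treated mouse 2 inside the vehicle range. It was higher by 0.32 (SE 0.12, exact permutation p = 0.0317, adjusted p = 0.0476), and kept the call only without vehicle mouse 4 or oxaliplatin mouse 2 (adjusted exact permutation p up to 0.0952 without any other mouse).

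Taken singly, some genes of these pairs passed and some did not. Atp6v0a4 rose (265 ± 7.92 to 337 ± 17.2 CPM, log2 fold change 0.34, edgeR adjusted p = 5.57e-04) while Atp6v0a1 stood at 71.8 ± 2.84 and 73.2 ± 4.67 CPM (0.03, edgeR adjusted p = 0.761). In the B pair Atp6v1b1 stood at 106 ± 4.68 and 117 ± 9.37 CPM (0.14, edgeR adjusted p = 0.132), and Atp6v1b2 fell (364 ± 17.9 to 308 ± 25.3 CPM, -0.24, edgeR adjusted p = 0.0149, and 0.0533 without vehicle mouse 1). Atp6v0d1 fell as well (134 ± 11.3 to 110 ± 9.22 CPM, -0.28, edgeR adjusted p = 0.00968), and Atp6v1g1 stood at 105 ± 1.62 and 97.8 ± 10.9 CPM (-0.10, edgeR adjusted p = 0.327).

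**Figure D3:**
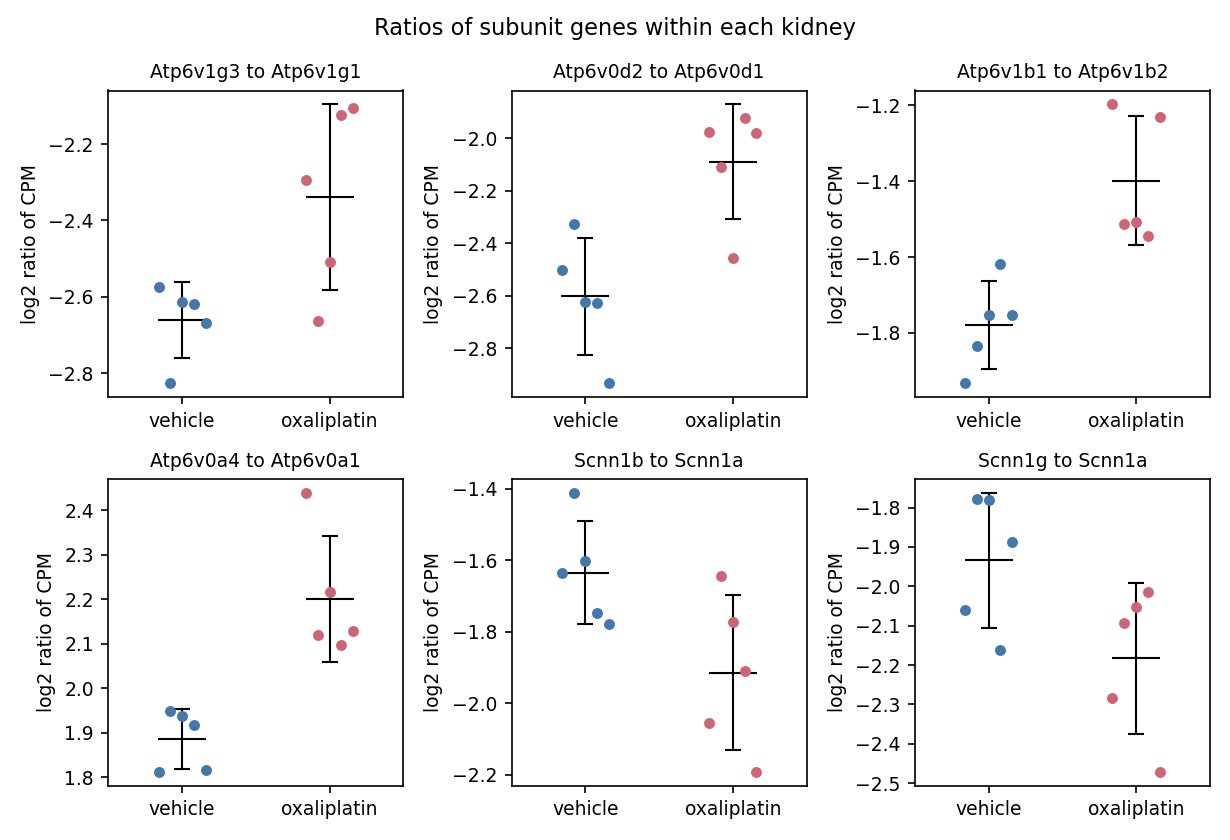
Log2 ratio of CPM between subunit genes within each vehicle (blue) and oxaliplatin (red) kidney, 5 per group, with the mean and SD as black lines and a separate vertical range for each pair. The groups are apart for Atp6v1b1 to Atp6v1b2 and for Atp6v0a4 to Atp6v0a1, and overlap for the other 4 pairs.

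Upstream of Aqp2, 23 genes of vasopressin signalling and Aqp2 control were tested, of which 7 rose and 2 fell. Their median log2 fold change was 0.14, and of all kidney genes tested 14.4% rose and 15.0% fell. With library size alone 15 of the 23 rose and 0 fell, where 4630 of all 19293 genes tested rose and 1577 fell. P2ry2, a purine receptor known to oppose vasopressin, rose from 11.6 ± 1.85 to 16.9 ± 1.16 CPM (log2 fold change 0.54, SE 0.11, edgeR adjusted p = 0.00120). The prostaglandin E2 receptor gene Ptger3 rose from 79.0 ± 12.8 to 115 ± 9.85 CPM (0.54, SE 0.098, edgeR adjusted p = 6.93e-04). Gata3, a transcription factor of the duct, rose from 24.4 ± 2.27 to 35.2 ± 6.60 CPM (0.53, SE 0.11, edgeR adjusted p = 0.00167). In all 3 genes every treated kidney lay above every vehicle kidney, as in 9.69% of all genes tested. These 3 were named as the list's largest changes that passed. The 2 that fell were Prkaca and Prkacb. Prkaca went from 113 ± 7.27 to 94.9 ± 8.50 CPM (-0.25, SE 0.072, edgeR adjusted p = 0.0133). Prkacb went from 85.8 ± 2.78 to 74.6 ± 3.09 CPM (-0.20, SE 0.058, edgeR adjusted p = 0.0151).

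Among 8 genes of tonicity and urea handling, 3 rose and 0 fell, beside 14.4% and 15.0% of all kidney genes tested (median log2 fold change 0.11). Slc14a2, the urea transporter of the inner medullary duct and thin limb, rose from 52.6 ± 12.6 to 97.1 ± 9.42 CPM (0.89, SE 0.15, edgeR adjusted p = 0.00116). Slc14a1, the urea transporter of the vasa recta and red cells, rose from 3.35 ± 0.409 to 6.63 ± 3.80 CPM (0.98, SE 0.30, edgeR adjusted p = 0.0248), and by 0.57 without oxaliplatin mouse 4. Its call was lost without vehicle mouse 1 (edgeR adjusted p = 0.0560), 3 (0.0605) or 4 (0.0518). Nfat5, the transcription factor that answers hypertonicity, rose from 101 ± 7.56 to 134 ± 19.2 CPM (0.41, SE 0.088, edgeR adjusted p = 0.00224). The rest of the list did not pass and did not share a direction. Akr1b3 stood at 93.4 ± 19.8 and 52.2 ± 26.0 CPM (-0.84, SE 0.34, edgeR adjusted p = 0.0982). The log2 fold change was -0.50 for Slc6a12, -0.10 for Hspa4l, 0.04 for Slc5a3 and 0.19 for Slc6a6.

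Of 19 genes of aldosterone action and ENaC control, 2 rose and 2 fell, where 14.4% of all kidney genes tested rose and 15.0% fell. Their median log2 fold change was 0.05. With library size alone 7 of the 19 rose and 2 fell, where 4630 of all 19293 genes tested rose and 1577 fell. Per1, a clock gene induced by aldosterone, stood between 75.7 and 130 CPM with vehicle and between 99.7 and 267 CPM after oxaliplatin and rose by 0.83 on the log2 scale (SE 0.27, edgeR adjusted p = 0.0465). That call was lost without any of 8 mice, namely vehicle mouse 1 (edgeR adjusted p = 0.0927), 3 (0.0924), 4 (0.0912) or 5 (0.101) or oxaliplatin mouse 2 (0.0680), 3 (0.0653), 4 (0.0697) or 5 (0.0535). The membrane protease gene St14 rose from 96.9 ± 3.58 to 130 ± 11.6 CPM (0.42, SE 0.068, edgeR adjusted p = 2.38e-04). Prss8, which encodes prostasin, a protease that activates ENaC, fell from 458 ± 28.2 to 356 ± 57.8 CPM (-0.36, SE 0.096, edgeR adjusted p = 0.00878). Furin fell as well, from 820 ± 57.0 to 666 ± 50.1 CPM (-0.30, SE 0.075, edgeR adjusted p = 0.00583). Genes of the list that did not pass went both ways. They include Tsc22d3 (-0.65, edgeR adjusted p = 0.0983), Klk1 (-0.27, 0.0719), Usp2 (-0.21, 0.310), Sgk1 (0.24, 0.664) and Fxyd4 (0.31, 0.0777).

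Of 8 other aquaporins 5 could be tested, of which 2 rose and 1 fell, beside 14.4% and 15.0% of all kidney genes tested. Aqp6, an intracellular channel of intercalated cells that is also on their list, rose from 63.6 ± 7.73 to 107 ± 14.3 CPM (0.75, SE 0.095, edgeR adjusted p = 3.36e-05). Aqp7, a glycerol channel of the straight proximal tubule, rose from 24.4 ± 1.38 to 30.3 ± 1.84 CPM (0.31, SE 0.072, edgeR adjusted p = 0.00355). Aqp11, an intracellular channel of the proximal tubule, fell from 83.5 ± 4.37 to 60.8 ± 8.53 CPM (-0.46, SE 0.086, edgeR adjusted p = 7.62e-04).

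Markers of other kidney cells moved between the same groups. The summed level of 8 proximal tubule markers went from between 17113 and 19937 CPM to between 13287 and 16870 CPM, with 4 lower and 2 higher by the test, and that of 5 loop of Henle markers from between 4379 and 5328 to between 5534 and 5826 CPM, with 2 higher and 1 lower. Neither pair of ranges overlapped. Of all single kidney genes tested, 14.4% rose and 15.0% fell, and 9.69% had treated values wholly above the vehicle values. Podocyte markers (5 of 5 higher, 296 to 301 against 434 to 529 CPM), endothelial markers (4 of 5, 272 to 289 against 324 to 542 CPM) and fibroblast markers (4 of 5 with 1 too low to test, 98.9 to 111 against 225 to 285 CPM) were also apart. Tubular injury markers (2 of 5 higher, 1 too low to test) went from between 279 and 325 to between 508 and 643 CPM. Most of that sum was Spp1, which rose from 293 ± 18.8 to 558 ± 56.8 CPM. Lcn2 also rose, from 1.51 ± 0.207 to 6.28 ± 2.76 CPM, while Havcr1 and Vcam1 did not pass (edgeR adjusted p = 0.834 and 0.838). Macrophage markers (4 of 6 lower, 1 higher) went from between 99.1 and 126 to between 58.3 and 68.3 CPM. Lymphocyte markers summed to between 2.65 and 4.81 CPM with vehicle and between 1.71 and 2.21 CPM after oxaliplatin, which were apart, and of the 5 only 2 could be tested and neither passed. The 4 distal convoluted tubule markers (1409 to 1776 against 1708 to 2152 CPM), the 6 erythroid markers (257 to 425 against 47.4 to 705 CPM) and the 5 urothelial markers (14.7 to 19.0 against 16.1 to 156 CPM) had overlapping sums and 0 that passed. The highest urothelial sum belonged to oxaliplatin mouse 4, without which Scnn1b passed and Atp6v0d2 did not, as given above. None of the markers listed was at 0 in all kidney libraries. The part of these markers in the collecting duct results was not tested.

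Across mice, the genes whose kidney level most resembled that of Aqp2, after each group's mean log2 CPM was subtracted, were Exoc3l (r = 0.975 over 10 mice), Gm20900 (0.956), Gm11185 (0.948), Tuba1b (0.946) and Ier3 (0.936), the highest of 15734 genes. Of the collecting duct genes, Scnn1g came nearest to Aqp2 (0.862), then Scnn1a (0.697) and Scnn1b (0.548), while Aqp3 stood at 0.320 and Aqp4 at -0.389. For Atp6v1g3 they were Nr2f1 (0.970), Rnase4 (0.958), Orai2 (0.942), Antxr1 (0.928) and Dph6 (0.921), while Scnn1a stood at 0.495, Aqp3 at 0.483 and Atp6v0d2 at 0.049. All points share their libraries, and the highest of so many correlations over 10 mice are a description only.

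Outside the kidney, the marrow of these groups held little of most of the 10 genes. Of the 10 genes 4 could be tested there, and Atp6v0d2 rose beyond 1.5-fold, as 11.6% of the 22363 marrow genes tested did. It stood at 36.7, 35.3, 30.8, 38.0 and 37.0 CPM with vehicle and at 96.7, 158, 99.0, 84.0 and 106 CPM after oxaliplatin. The groups were far apart (11.4% of all marrow genes tested had treated values wholly above the vehicle values), and the mean rose from 35.5 ± 2.81 to 109 ± 28.8 CPM (log2 fold change 1.61, SE 0.15, edgeR adjusted p = 4.97e-06). In vehicle mice its level per kb was thus 13.1 ± 1.03 CPM per kb in marrow beside 8.10 ± 0.641 in kidney, where the 2 tissues were scaled separately.

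Atp6v0d2 is also part of the osteoclast proton pump and is needed for osteoclast fusion. Of 7 osteoclast markers, 4 rose in marrow and 0 fell, where 16.3% and 16.8% of all genes tested did so (median log2 fold change 1.43 against -0.04 over all genes tested), although their summed level overlapped between groups (1133 to 1431 against 763 to 1814 CPM). Dcstamp, a fusion protein, rose from 0.628 ± 0.260 to 2.68 ± 1.17 CPM (2.09, SE 0.41, edgeR adjusted p = 0.00162), and Ctsk, the bone-degrading cathepsin K, from 33.4 ± 16.1 to 101 ± 43.9 CPM (1.60, SE 0.40, edgeR adjusted p = 0.00924). Macrophage markers rose in 5 of 6 (722 to 986 against 976 to 2247 CPM), and all 6 erythroid markers fell (25363 to 46297 against 2701 to 9162 CPM). The part of these cells in the Atp6v0d2 result was not tested.

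The other marrow genes did not pass. Scnn1a stood at 24.7, 25.0, 27.1, 25.1 and 30.5 CPM with vehicle and at 21.8, 21.3, 13.3, 14.2 and 32.4 CPM after oxaliplatin (log2 fold change -0.36, SE 0.21, edgeR adjusted p = 0.205). Treated mouse 5 lay above all others, and without it Scnn1a was lower by -0.55 (edgeR adjusted p = 0.0143). Avpr2 had 28 to 129 counts per marrow library, 1.23% to 2.30% of the Arhgap4 counts of the same library (log2 fold change -0.40, edgeR adjusted p = 0.438), and the overlap of their exons applies here too. Scnn1b had 8 to 27 counts (0.32, edgeR adjusted p = 0.582), Scnn1g 2 to 16 and Aqp3 4 to 40. Aqp4 had 0 to 5 counts with vehicle and 7 to 38 after oxaliplatin. Aqp2 had 0 to 8 counts per marrow library, and Slc26a4 and Atp6v1g3 had 0 in every vehicle library and at most 4 and 5 after oxaliplatin.

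**Figure D4:**
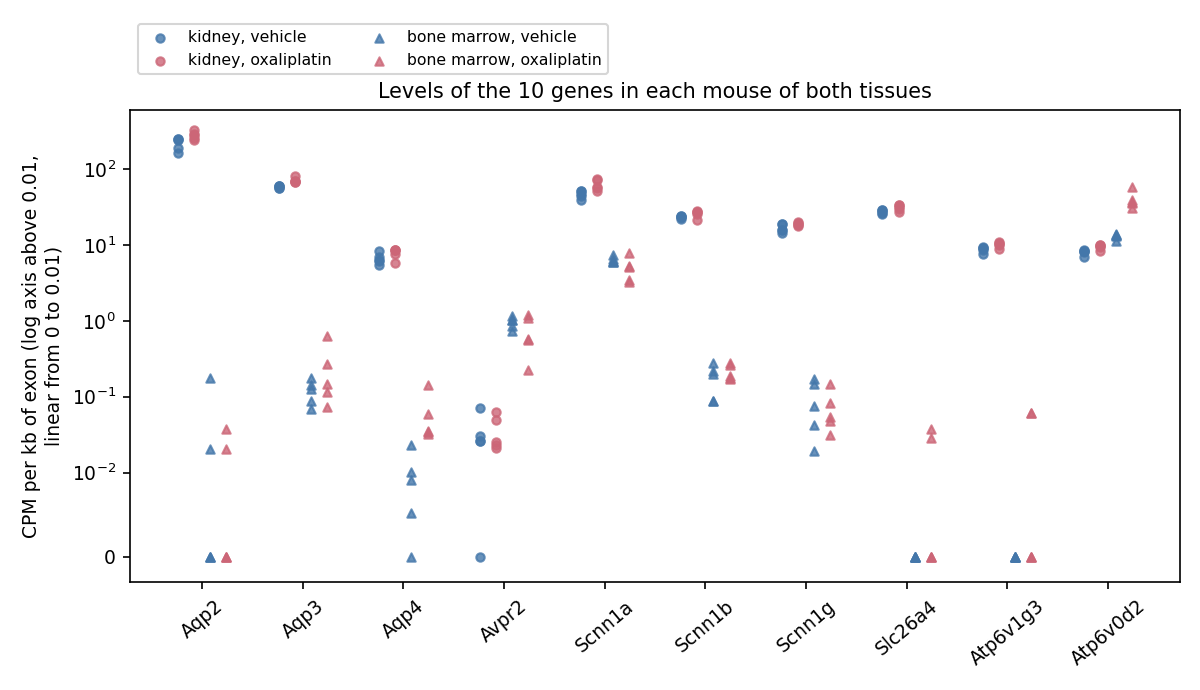
Levels of the 10 genes in CPM per kb of exon in each kidney (circles) and bone marrow (triangles) library, vehicle in blue and oxaliplatin in red, on a log axis that is linear from 0 to 0.01. Only Atp6v0d2 and Avpr2 lie higher in marrow than in kidney in both groups, and Avpr2 shares most of its exon bases with Arhgap4.

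Whether a gene answered oxaliplatin differently in kidney and marrow was asked of the interaction term in an edgeR fit of all 20 libraries, adjusted over 24321 genes, of which 30.1% passed. Of the 10 genes 5 passed. For Atp6v0d2 the kidney log2 fold change was lower than the marrow one by a fitted difference of -1.44 (SE 0.18, edgeR adjusted p = 2.25e-06), and for Scnn1a it was higher by 0.74 (SE 0.23, edgeR adjusted p = 0.0172). Both passed with any 1 library left out. The other 3, Aqp4, Slc26a4 and Atp6v1g3, had too few marrow counts for a test in marrow alone, and Slc26a4 and Atp6v1g3 lost the call in 6 and 7 of the 20 fits that left out 1 library.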

How the data were processed

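Bulk RNA was sequenced in 5 vehicle and 5 oxaliplatin libraries of kidney, and in 5 vehicle and 5 oxaliplatin libraries of bone marrow. The authors deposited raw counts per gene, made with STAR, as uniquely aligned unambiguous reads on the mouse annotation of Ensembl release 101. The submitters' processing notes also name featureCounts and Salmon, and library preparation is described in 2 ways (ribosomal RNA removal with random hexamers, or a SMARTer kit). Kidney and marrow libraries held 24393007 to 41140527 counts. Each table's 55774 lines came down to 55486 genes once repeated identifiers, whose counts were the same, and 1 incomplete line were dropped.

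Genes were filtered with filterByExpr (minimum count 10), scaled by TMM and tested in each tissue by edgeR 4.0.16 in R 4.3.3 (glmQLFit with robust estimation and glmQLFTest), with treatment as the only term. Subunit ratios used log2 CPM with a prior count of 2 and an exact permutation test. Positions and exon lengths came from GENCODE mouse release M21 (GRCm38), and promoters from RefSeq. Alternatives were DESeq2 1.42.0, other scalings and filters, Y-linked genes as a covariate, a replicate block and each library left out. The steps were tested on simulated data.

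The genes and lists were chosen with earlier results of these data known. All 10 genes are named, and in each pathway list the 3 largest changes that passed and the genes of the 6 subunit pairs. Other genes of the pathway lists were named after their values were seen. In both tissues, no 2 libraries of a group agreed within sampling noise. Nothing says whether same-numbered libraries share a mouse or day, so a mouse number here names a library within its tissue and group.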

Additional observations from a re-analysis of the deposited data

Results flagged for a closer look

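One of 38 groups of 5 values held a sample far from the others, and chance flags about 1 in 20 groups. In it, Aqp3 stood at 149 CPM in the kidney of oxaliplatin mouse 1, while the other 4 treated kidneys ranged from 122 to 128 CPM.

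Of the 10 genes 5 passed edgeR's interaction test between kidney and marrow, of which Atp6v0d2 and Scnn1a had enough counts to be tested in each tissue. The fitted difference, kidney minus marrow on the log2 scale, was -1.44 for Atp6v0d2 (edgeR adjusted p = 2.25e-06), 0.74 for Scnn1a (0.0172) and -2.42 for Aqp4 (0.00468). It was -3.24 for Slc26a4 (edgeR adjusted p = 0.0332) and -3.34 for Atp6v1g3 (0.0328), and the size of these last values depends on the prior count, since all vehicle marrow libraries were at 0. Without 1 library these calls were lost in 6 and 7 of 20 fits, and that of Aqp4, with 0 to 5 counts in the vehicle marrows, in 0 of 20. The number that passed was 3 without vehicle marrow mouse 2, 3, 4 or 5 or treated marrow mouse 1.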

How the results depend on the processing

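No collecting duct gene moved beyond 1.5-fold in kidney under any alternative, and 4 counted when the fold threshold was dropped. The number that passed in kidney was 4, and it was 8 with library size alone, 2 with no filter beyond 1 count and 2 to 4 with 1 mouse left out. None passed a test against 1.5-fold. In marrow 1 gene was called, and 2 with no filter. The number with an interaction was 5, and 3 to 5 with 1 library left out. The interaction of Aqp2, 1.88 and not past the threshold, reversed to -0.45 without vehicle marrow mouse 1, which held 8 Aqp2 counts (up to 2.72 with another library left out, edgeR adjusted p from 0.0840 to 0.780 over all alternatives).

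Same-numbered vehicle and treated kidneys did not deviate together (r from -0.15 to 0.075, best with their own number in 1 of 5 pairs). In marrow, pair 5 matched its own number best (r = 0.23). Between tissues, the kidneys of oxaliplatin mice 3 (r = 0.16) and 5 (0.20) matched the marrow of their own number best, and no other kidney did. A lack of shared deviation cannot show that samples are unpaired, so pairing is not known. With a replicate block 2 collecting duct genes passed in kidney (Aqp2 at an edgeR adjusted p of 0.0517 and Atp6v0d2 at 0.0691), 3 had an interaction, 1 aldosterone list gene rose and 4 ubiquitous V-ATPase genes fell.

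With library size alone, 4630 of all 19293 kidney genes tested rose and 1577 fell. In that fit 15 genes of the vasopressin list rose and 0 fell, 7 of the aldosterone list rose, and 2 ubiquitous V-ATPase genes rose and 2 fell. With the covariate of Y-linked genes 5 of these fell. DESeq2 gave 1 lower tonicity gene. With 1 mouse left out, 1 to 2 aldosterone list genes rose, 0 to 1 tonicity genes fell, and 0 to 1 ubiquitous V-ATPase genes rose and 4 to 8 fell. The ratios then ranged from 0.26 to 0.40 for Atp6v1g3 to Atp6v1g1, from 0.43 to 0.61 for Atp6v0d2 to Atp6v0d1, from -0.35 to -0.21 for Scnn1b to Scnn1a and from -0.31 to -0.18 for Scnn1g to Scnn1a. With 4 against 5 mice the exact permutation test has fewer divisions, and the cause of the other changes was not tested. Depth limits the marrow values, where 3 counts correspond to between 0.0667 and 0.0974 CPM.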
